A study of Mus musculus with 51 samples.

Results

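10 genes that are used as markers of macrophages were followed through all 51 libraries of a study of mouse gastrocnemius, a calf muscle: Csf1r, Adgre1, Cd68, C1qa, C1qb, C1qc, Mrc1, Cd163, Lgals3 and Cd74. The set is a list of gene names, and all 10 were found among the 48321 gene symbols of each count table. The study concerns BMAL1, a transcription factor of the circadian clock, and HIF, the factors that answer low oxygen, in the glucose metabolism of obese muscle. Whole muscle was sequenced from its 3′ transcript ends in 2 batches, with 1 library per animal. Batch 1 held, on regular chow, 4 controls (Bmal1 fx/fx) and 3 Bmal1 knockouts, and, on high-fat diet, 7 controls (Bmal1 fx/fx) and 5 Bmal1 knockouts. Batch 2 was on high-fat diet throughout. It held 8 controls (Bmal1 fx/fx) and 4 Bmal1 knockouts, 6 controls (Vhl fx/fx) and 4 Vhl knockouts, and 6 controls (Bmal1 fx/fx, Vhl fx/fx) and 4 double knockouts of Bmal1 and Vhl. The design text gives the Bmal1 deletion as specific to skeletal muscle. It names its controls wild type, where the sample labels give floxed alleles. The sources used here give neither the Cre driver, the age, sex and strain of the animals nor the time of harvest.

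Macrophages of skeletal muscle lie between the fibres and along vessels, clear debris and feed signals to regenerating fibres. They depend on the receptor CSF1R, whose ligands are CSF1 and interleukin 34, and they are a main source of C1q, the first component of the classical complement pathway, which is built from C1QA, C1QB and C1QC chains. In obesity, macrophages of fat tissue are known to accumulate and to take up lipid, and galectin 3, the product of Lgals3, marks many of these cells. VHL is part of the ubiquitin ligase that removes HIF when oxygen is present, and cells that lack it hold HIF in its active state.

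The libraries held 6945247 to 14717795 counts, and mitochondrial transcripts made up 16.6 to 42.4% of them. Summed transcripts of 12 muscle fibre markers reached 98000 to 162000 CPM, the counts scaled to a common library size with TMM factors (trimmed mean of M-values). 2 chow libraries stood apart: the 12 T cell markers summed to 51.7 CPM in chow control 2 and 69.5 CPM in chow Bmal1 knockout 1, against 15.8 CPM at most in the other libraries. Vhl control 6 held 62.3 CPM of the 12 neutrophil markers, and double knockout 1 held 25.4 CPM, against 9.63 CPM at most elsewhere. Arntl, the gene of BMAL1, was at 7.41 ± 1.83 CPM (SD, n = 5) in batch 1 knockouts on high-fat diet and 15.0 ± 2.64 CPM (n = 7) in their controls, and in batch 2 at 9.27 ± 1.15 (n = 4) and 10.9 ± 1.59 CPM (n = 8). Vhl was at 1.69 ± 0.793 CPM (n = 4) in Vhl knockouts and 3.09 ± 1.30 CPM (n = 6) in their controls. A 3′ tag can lie outside the deleted part, so neither gene checks the labels. All 10 markers were seen in every library, with the fewest counts, 2, for Cd68 in a chow control. In whole muscle, fewer macrophages and less of a transcript per macrophage cannot be told apart.

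C1qa, C1qc and C1qb sit side by side on the minus strand of chromosome 4 (GRCm38, GENCODE M21: 136895917 to 136898803, 136889804 to 136893065 and 136880129 to 136886187). Cd68 lies on chromosome 11 (69664213 to 69666153), Adgre1 on chromosome 17 (57358691 to 57483527), Lgals3 on chromosome 14 (47367751 to 47386160), Mrc1 on chromosome 2 (14229392 to 14332057) and Cd163 on chromosome 6 (124304656 to 124330527). Csf1r overlaps Hmgxb3 on the other strand. Whether the counting used strand is not stated, so reads of this pair could have been mixed.

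RefSeq promoter windows (GRCm38.p6) were found for 6 of the 10 genes: C1qb, C1qc, Cd68, Mrc1, Cd163 and Lgals3. 4 are printed, since C1qb and C1qc were called in more than 1 comparison and moved together, Cd68 was the call for diet in controls, and Cd163 was a call of the double knockout. Each ends at or just before the gene's start and reads 5′ to 3′ on the gene's strand. Capitals mark GAGGAA or its reverse complement TTCCTC, a purine-rich core of the kind that the macrophage factor PU.1 and other ETS factors bind.
C1qb (chr4:136886201-136886450, minus strand): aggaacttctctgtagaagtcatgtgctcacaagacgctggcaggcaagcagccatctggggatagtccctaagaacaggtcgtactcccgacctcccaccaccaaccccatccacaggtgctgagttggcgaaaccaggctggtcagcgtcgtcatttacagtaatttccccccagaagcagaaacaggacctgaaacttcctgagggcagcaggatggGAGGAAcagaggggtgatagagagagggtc
C1qc (chr4:136893066-136893164, minus strand): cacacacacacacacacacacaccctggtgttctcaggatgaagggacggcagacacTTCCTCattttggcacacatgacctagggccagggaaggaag
Cd68 (chr11:69666171-69666420, minus strand): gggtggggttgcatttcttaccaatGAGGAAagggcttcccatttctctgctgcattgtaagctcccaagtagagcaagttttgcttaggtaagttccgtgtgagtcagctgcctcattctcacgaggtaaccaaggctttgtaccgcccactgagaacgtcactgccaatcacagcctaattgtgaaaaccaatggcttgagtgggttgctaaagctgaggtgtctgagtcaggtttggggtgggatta
Cd163 (chr6:124304401-124304650, plus strand): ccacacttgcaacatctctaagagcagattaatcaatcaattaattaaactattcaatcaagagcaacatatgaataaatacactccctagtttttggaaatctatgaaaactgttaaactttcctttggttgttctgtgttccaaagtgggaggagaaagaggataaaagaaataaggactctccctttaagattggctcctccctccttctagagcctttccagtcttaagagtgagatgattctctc
GAGGAA, searched on both strands, stood once in each of C1qb, C1qc and Cd68, 3 times in Mrc1 and 0 times in Cd163 and Lgals3, while 23.3% of 32851 RefSeq windows of 250 bases held it. CACGTG, the E-box that BMAL1 binds, was in 6.02% of all windows and ACGTG, 1 form of the HIF site core, in 16.6% (both strands, and every CACGTG also holds ACGTG). The 6 windows held 0 of CACGTG and of ACGTG. The core can also read GCGTG. That form was not counted over all windows, and the Lgals3 window holds it. The Lgals3 window lies inside the annotated gene, past its start. These are matches of letters in a short window and say nothing of binding.

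**Figure D1:**
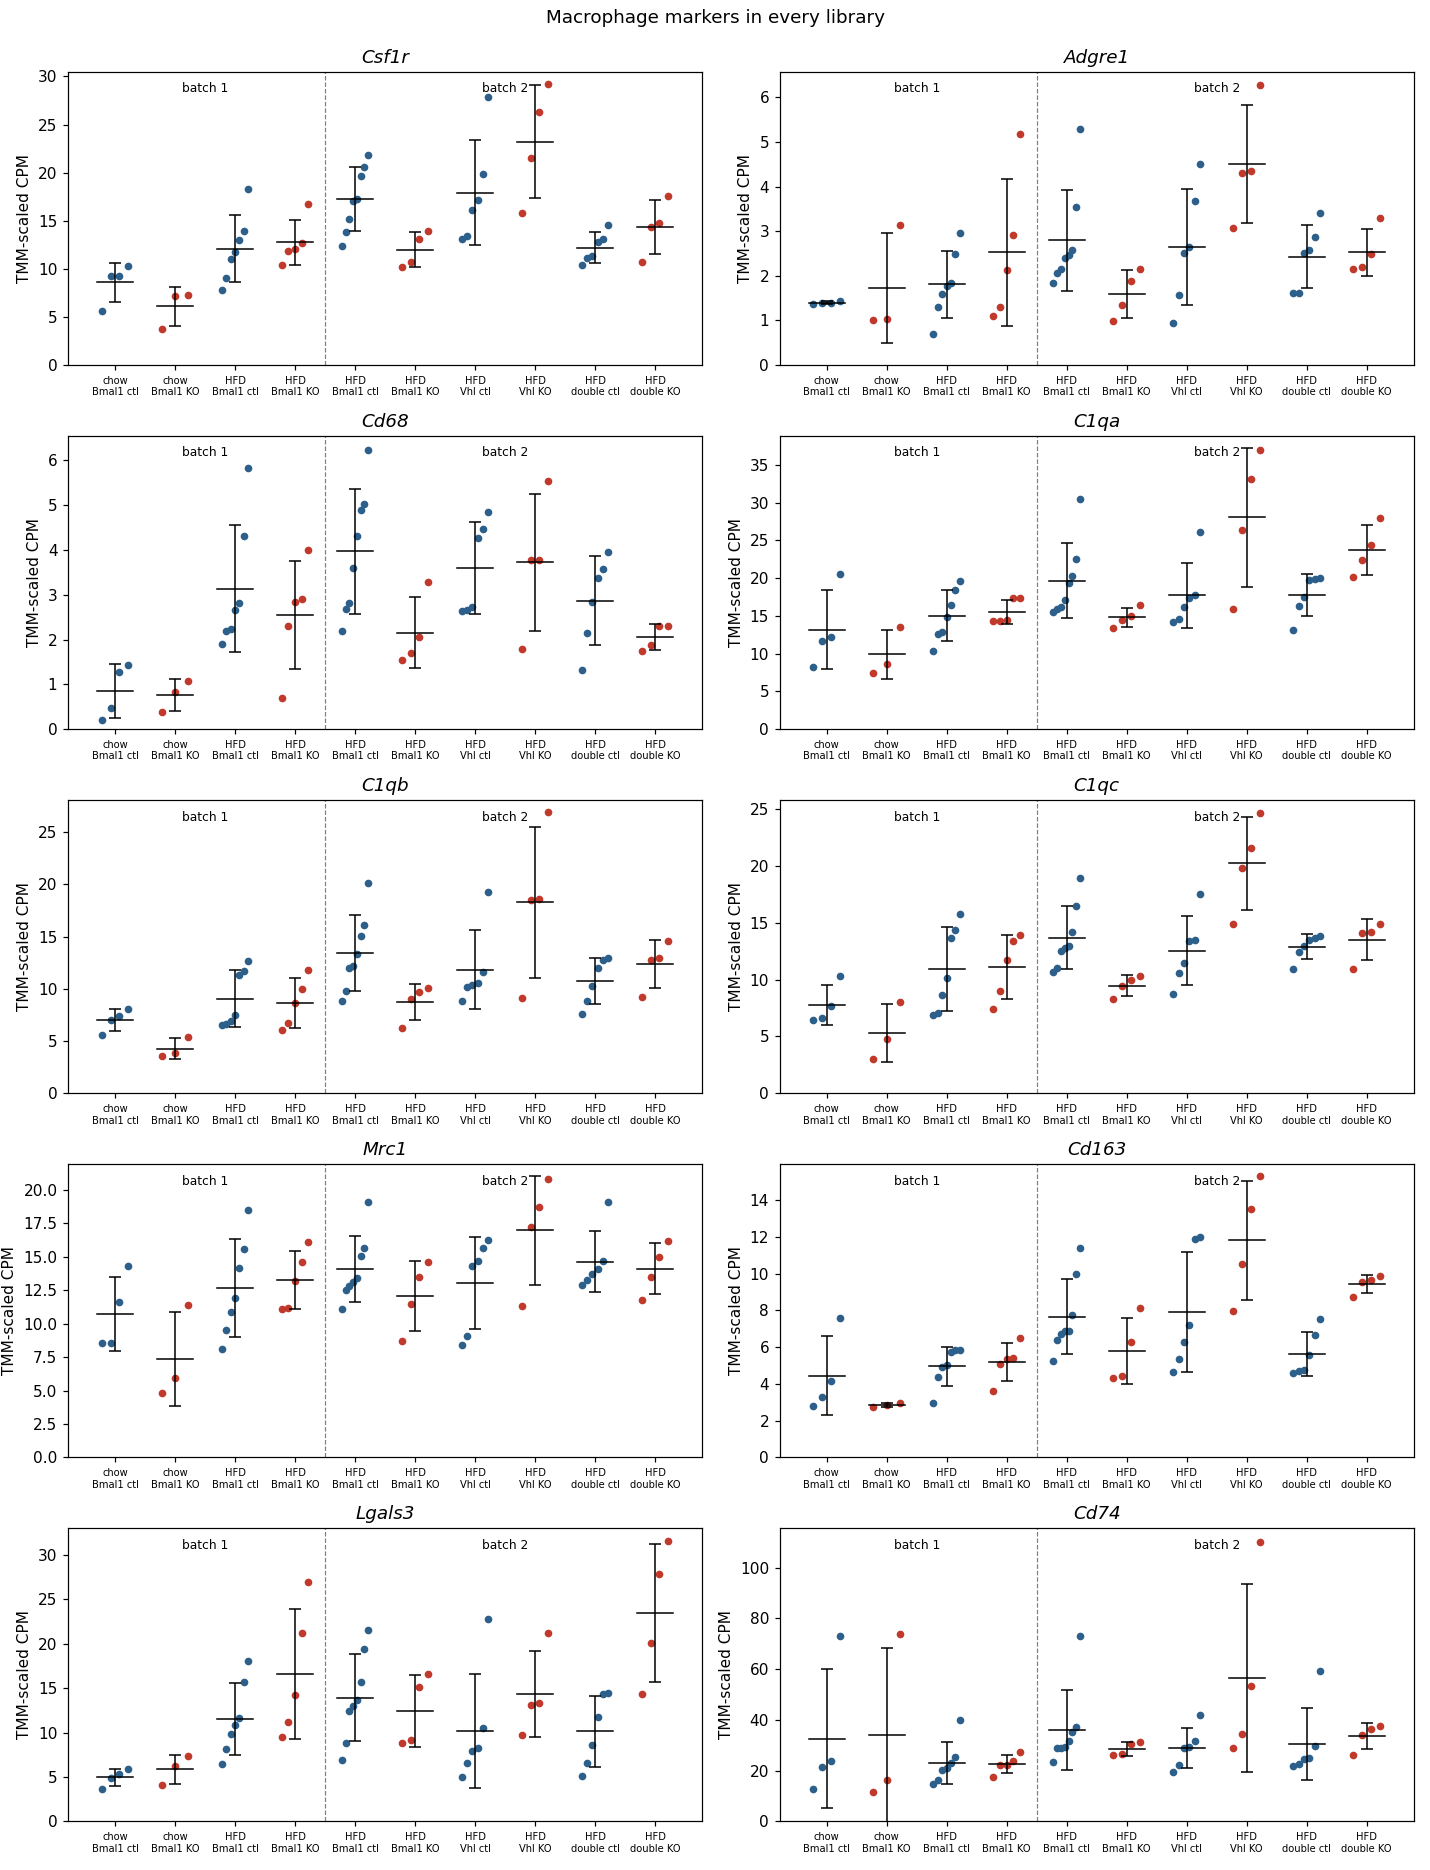
TMM-scaled CPM (y axis) of each macrophage marker in every library (points), by group (x axis), with the mean and SD of each group in black. Controls are blue, knockouts red, and a dashed line parts the 2 batches, which were scaled separately. Cd68 in high-fat controls of batch 1 (1.91 to 5.83 CPM) sits above all 4 chow controls (0.199 to 1.44 CPM), and Cd74 reaches 110 CPM in Vhl knockout 2.

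What a high-fat diet does to these transcripts when the muscle clock is intact was read from the controls of batch 1. Cd68, a lysosomal membrane glycoprotein of phagocytes, rose, and the other 9 genes did not pass. Cd68 was at 0.199, 0.479, 1.27 and 1.44 CPM in the 4 chow controls and at 1.91 (lowest), 2.67 (median) and 5.83 CPM (highest) in the 7 high-fat controls. The groups did not overlap. The log2 fold change was 1.87 ± 0.45 (standard error, edgeR adjusted p = 0.020), on 2 to 18 counts per chow library. So 1 of 10 markers was called, where 2.37% of all 12762 genes tested were (1.51% higher).

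Lgals3, a galactose-binding lectin of lipid-laden macrophages that other cells make as well, stood at 3.67, 4.85, 5.37 and 5.93 CPM on chow and at 6.52, 10.8 and 18.1 CPM (lowest, median, highest) on high-fat diet. Its groups did not overlap either, and its change of 1.21 ± 0.33 did not pass (edgeR adjusted p = 0.065). Csf1r had 5 of 7 high-fat libraries above every chow control (7.77 to 18.3 against 5.66 to 10.3 CPM, 0.48 ± 0.21, adjusted p = 0.30). The C1q chains had log2 changes of 0.18 (C1qa), 0.36 (C1qb) and 0.49 (C1qc). The scavenger receptor Cd163 (0.13), the mannose receptor Mrc1 (0.22) and Adgre1, the gene of F4/80 (0.38), were each at edgeR adjusted p of 0.76 or over. Cd74, the invariant chain of MHC class II, was the only one with a negative value (−0.52 ± 0.49). The median over the 10 was 0.37, against −0.01 over all genes.

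Among related lists, 0 of 21 monocyte and macrophage identity genes, 0 of 14 phagocyte and Fc receptor genes and 0 of 17 tissue-resident macrophage genes passed for diet in controls (1, 1 and 2 at an unadjusted p under 0.05 with edgeR). Of 22 cytokines and chemokines listed, 8 had counts enough to be tested and 2 rose: Ccl7 and Ccl2, chemokines that draw monocytes through the receptor CCR2. Ccl7 had 0 counts in all 4 chow controls and 0.161 to 2.41 CPM in high-fat controls (edgeR adjusted p = 0.0063), and Ccl2 changed by 3.32 ± 0.86 (adjusted p = 0.035). Ccl7 met the count filter through groups other than the chow controls, so its call is only a description. Mmp12, a macrophage elastase, was the 1 of 22 lysosome and lipid-associated genes that rose (adjusted p = 0.0068). Without the 2 chow libraries rich in T cell transcripts, Cd68 was at 2.31 ± 0.52 (edgeR adjusted p = 0.013). The call on Cd68 was lost without chow control 1 (1.56 ± 0.46, edgeR adjusted p = 0.080) or without chow control 3 (1.66 ± 0.50, adjusted p = 0.098). Lgals3 passed without high-fat control 1 (1.32 ± 0.31, adjusted p = 0.033) and with DESeq2 (1.22 ± 0.27, adjusted p = 0.00098).

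The same diet comparison was made in animals without muscle Bmal1. Csf1r, C1qb and Lgals3 rose, by 2.11-fold, 2.03-fold and 2.83-fold, and 9 of the 10 log2 changes were positive. Csf1r was at 3.78, 7.17 and 7.32 CPM in the 3 chow knockouts and at 10.4, 11.9, 12.1, 12.7 and 16.7 CPM in the 5 high-fat knockouts (1.08 ± 0.25, edgeR adjusted p = 0.014). C1qb was at 3.56, 3.86 and 5.40 CPM against 6.06, 6.72, 8.65, 10.0 and 11.8 CPM (1.02 ± 0.26, adjusted p = 0.019). For both genes every high-fat library lay above every chow library. Lgals3 was at 4.12, 6.19 and 7.36 CPM on chow and 9.55, 11.2, 14.2, 21.2 and 26.9 CPM on high-fat diet, again without overlap (1.50 ± 0.37, adjusted p = 0.034). These 3 of 10 compare with 3.28% of all genes called (1.72% higher, 1.57% lower).

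Of the other markers, C1qa (7.50, 8.65 and 13.5 against 14.3 to 17.3 CPM, 0.65 ± 0.24, edgeR adjusted p = 0.16) and Cd163 (2.72, 2.86 and 2.94 against 3.63 to 6.52 CPM, 0.88 ± 0.29, adjusted p = 0.094) also had groups without overlap. The share of all genes without overlap between these small groups was not counted, so the lack of overlap adds nothing to the tests. C1qc (1.08 ± 0.32, adjusted p = 0.074), Mrc1 (0.85 ± 0.27, adjusted p = 0.091) and Cd68 (1.74 ± 0.53, adjusted p = 0.069) missed the threshold, and Adgre1 stood at 0.56 ± 0.46. Cd74 was at −0.58 ± 0.57. The median over the 10 markers was 0.95, against −0.01 over all genes. DESeq2 called 6 of them and 576 of all genes, where the main edgeR fit called 419 of all genes.

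Against 1.72% of all genes higher, the list of tissue-resident macrophage genes had 5 of 17 higher and 0 lower in this comparison. They were Pf4, a platelet and macrophage chemokine (6.45 ± 0.595 CPM on chow, n = 3, and 15.4 ± 2.29 CPM on high-fat diet, n = 5, log2 1.26 ± 0.21, edgeR adjusted p = 0.00063), the lectins Cd209d and Cd209f, the chemokine Ccl24, and Gas6, the ligand of the AXL and MERTK receptors that recognise dying cells (0.64 ± 0.14, adjusted p = 0.0095). Ccl6 (1.52 ± 0.32, adjusted p = 0.011) and Ccl9 (1.80 ± 0.40, adjusted p = 0.010), chemokines of mouse myeloid cells, rose as well, as did the inhibitory Fc receptor gene Fcgr2b (1.58 ± 0.46, adjusted p = 0.046). Monocyte and macrophage identity genes gave 0 of 21 and MHC class II genes 0 of 6 with edgeR (2 and 0 at an unadjusted p under 0.05). Of the genes named here, Gas6 need not come from macrophages.

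Markers of other cells differed between the same libraries. Of 12 fibroblast and fibro-adipogenic markers 3 rose (Dpt, Fbn1 and Mfap5) and all 12 values were positive, with a median of 0.39. Their summed level was 1170 to 1350 CPM in chow and 1350 to 1650 CPM in high-fat knockouts. Of 10 adipocyte markers 2 rose (Fabp4 and Lep), with a median of 0.86 and sums of 323 to 759 against 468 to 809 CPM. Mitochondrial transcripts took 23.3 to 28.9% of counts in chow and 30.1 to 37.9% in high-fat knockouts, and 3 of 10 macrophage markers passed without those transcripts too. Rescaling leaves the other genes nearly as they were: the markers' median less that of all genes was 0.96 in both fits. This fit therefore cannot show whether the mitochondrial share matters. The part of fibroblasts and adipocytes in the marker changes was not tested.

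These calls leaned on the 3 chow knockouts. With 1 library left out at a time, all genes called ran from 132 to 370, against 419 in the main fit. Without chow knockout 3, 0 of 10 markers passed, with Csf1r at 0.82 ± 0.26 (edgeR adjusted p = 0.14), and without chow knockout 2 only 1 passed. Without chow knockout 1, the library with 69.5 CPM of T cell markers, or without high-fat knockout 1, 5 passed. Leaving out both chow libraries with T cell transcripts gave 5 calls too: Csf1r (1.21 ± 0.30), C1qa (0.94 ± 0.21), C1qb (1.22 ± 0.30), C1qc (1.51 ± 0.33) and Mrc1 (1.30 ± 0.26), while Lgals3 no longer passed (1.69 ± 0.47, adjusted p = 0.069). C1qb was also lost without high-fat knockout 4 (0.88 ± 0.26, adjusted p = 0.065), and Lgals3 without high-fat knockout 2 (1.55 ± 0.39) or 3 (1.40 ± 0.38) or any 1 of the chow knockouts (1.30 to 1.69).

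Whether diet acted differently in controls and knockouts was tested directly as an interaction. 0 of 10 markers passed, as did 0 of 12762 genes (0% called), with 0 markers and 575 genes at an unadjusted p under 0.05, while DESeq2 called 3 genes. The marker differences ran from −0.13 ± 0.71 for Cd68 to 0.74 ± 0.37 for Cd163, with a median of 0.54. The passing of Csf1r and C1qb in knockouts and not in controls is therefore not shown to be a difference between genotypes.

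**Figure D2:**
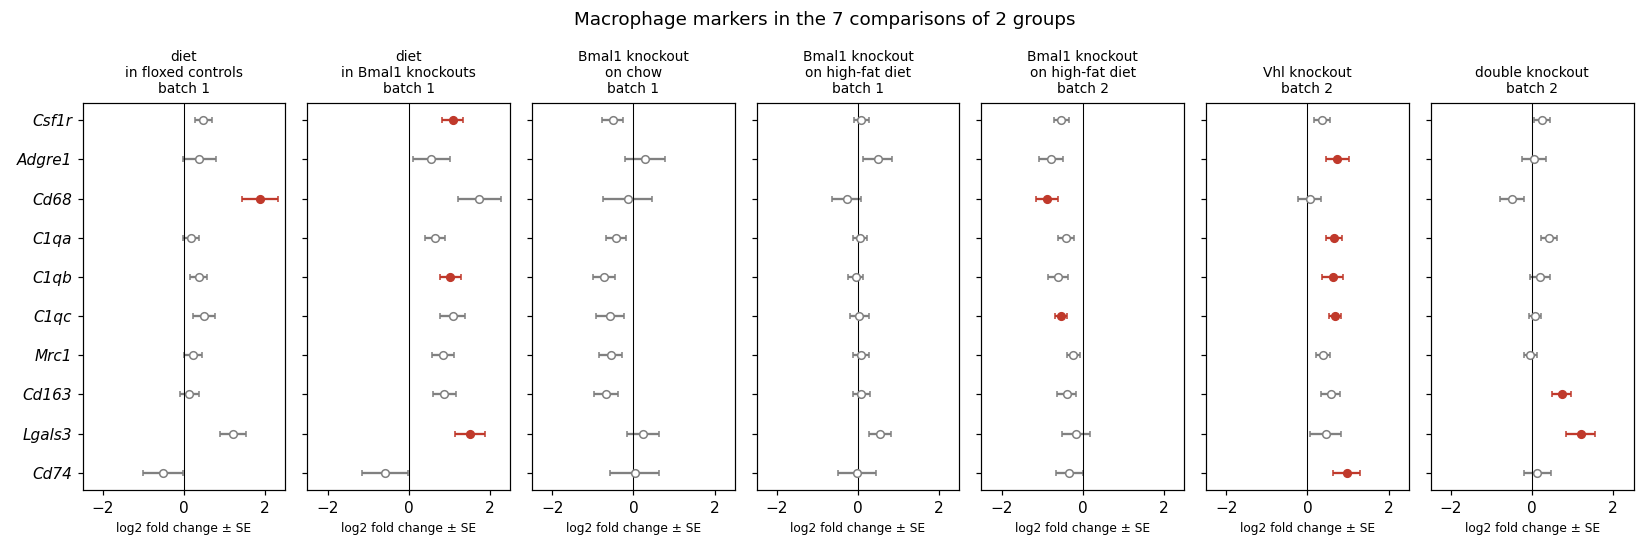
Log2 fold change with its standard error (x axis) of each marker (y axis) in the 7 comparisons of 2 groups. Filled red points passed at an edgeR adjusted p under 0.05, and open grey points did not. In the Vhl knockout all 10 points lie above 0, and in the batch 2 Bmal1 knockout all 10 lie below 0.

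Cd74 was at 73.0 CPM in chow control 2 and 73.8 CPM in chow Bmal1 knockout 1, the libraries with most T cell transcripts, and at 11.5 to 23.8 CPM in the other 5 chow libraries. Without these 2 libraries its diet change went from −0.52 to 0.25 ± 0.28 in controls and from −0.58 to 0.69 ± 0.35 in knockouts, and it passed in neither. In the same 2 libraries the 10 MHC class II genes summed to 211 and 177 CPM, against 44.5, 52.5 and 67.2 CPM in the other chow controls and 22.7 and 45.9 CPM in the other chow knockouts. Most of the other macrophage markers were high there too. Csf1r was 10.3 CPM in chow control 2, the highest of the 7 chow libraries, and 7.17 CPM in chow knockout 1. Chow control 2 had the highest C1qa (20.6 CPM), C1qb (8.10 CPM), C1qc (10.3 CPM), Mrc1 (14.3 CPM), Cd68 (1.44 CPM) and Lgals3 (5.93 CPM) of its group. Chow knockout 1 had the highest C1qa (13.5 CPM), C1qb (5.40 CPM), C1qc (8.05 CPM), Mrc1 (11.4 CPM) and Lgals3 (7.36 CPM) of its group. It also had the highest Adgre1 (3.14 CPM, against 1.03 and 1.01 CPM), Cd68 (1.08 CPM) and Cd163 (2.94 CPM). Not every marker was high: in chow control 2 Adgre1 (1.36 CPM) was the lowest of its group, and Cd163 (4.17 CPM) lay below chow control 3 (7.58 CPM). Csf1r in chow knockout 1 lay just below chow knockout 2 (7.32 CPM). The 10 markers summed to 150 and 134 CPM in these libraries, against group medians of 77.1 and 50.5 CPM. Cd74 itself gave 73.0 and 73.8 CPM of those sums. Cd74 is also made by B cells and dendritic cells, and the part of these cells in its values was not tested.

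**Figure D3:**
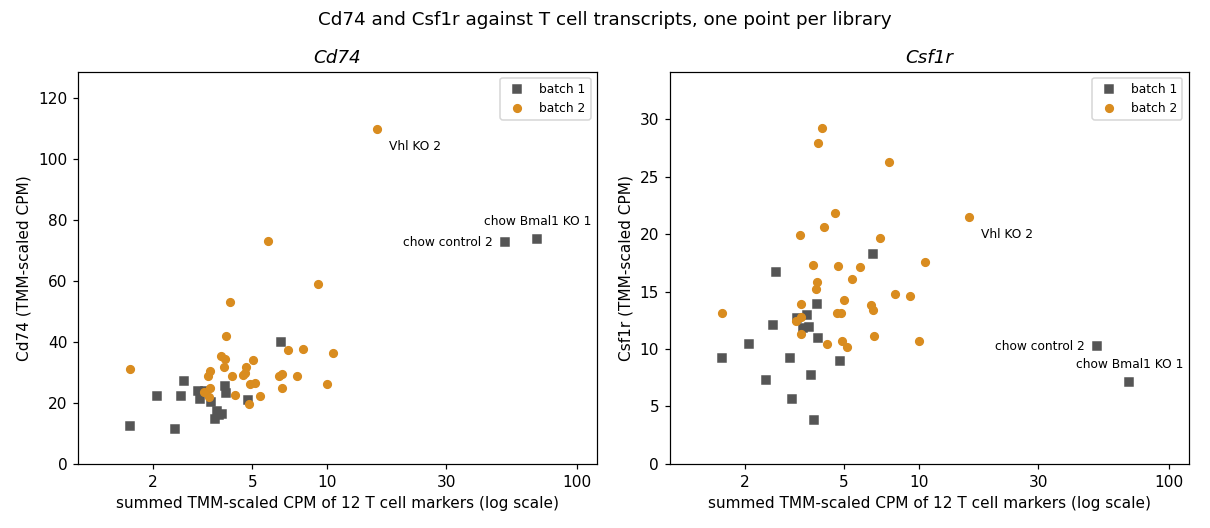
Cd74 (left) and Csf1r (right) in TMM-scaled CPM (y axes) against the summed CPM of 12 T cell markers (x axes, log scale), 1 point per library, with batch 1 as grey squares and batch 2 as orange circles. The 2 chow libraries at 51.7 and 69.5 CPM of T cell markers hold 73.0 and 73.8 CPM of Cd74 and 10.3 and 7.17 CPM of Csf1r, of which 10.3 CPM is the highest among the chow libraries.

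Loss of Bmal1 was tested 3 times against floxed controls. On high-fat diet in batch 1, 0 of 10 markers passed, and 0 had an unadjusted p under 0.05, while 9.00% of all genes were called (3.82% higher, 5.18% lower), and DESeq2 called 0 markers as well. The largest change was Lgals3 (9.55 to 26.9 against 6.52 to 18.1 CPM, 0.53 ± 0.27, edgeR adjusted p = 0.30), and the C1q chains stood at 0.05 ± 0.18, −0.06 ± 0.19 and 0.03 ± 0.24 for C1qa, C1qb and C1qc. The median was 0.06. The groups of all 10 genes overlapped.

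On chow, 0 of 10 passed again, where 3.84% of all genes did (2.29% lower), and DESeq2 called 0. C1qb had the smallest p: its 3 knockouts at 3.56, 3.86 and 5.40 CPM lay below the 4 controls at 5.56, 7.02, 7.40 and 8.10 CPM (−0.72 ± 0.27, edgeR adjusted p = 0.16). Cd163 was at 2.72, 2.86 and 2.94 CPM against 2.77, 3.28, 4.17 and 7.58 CPM (−0.67 ± 0.30, adjusted p = 0.30), the other marker with an unadjusted p under 0.05. The median was −0.47, with 7 of 10 values negative. Without chow knockout 1, Mrc1 passed (−1.0 ± 0.28, adjusted p = 0.042). Of 17 tissue-resident macrophage genes, 4 fell: Pf4 (−0.87 ± 0.22, adjusted p = 0.018), Igf1 (−0.62 ± 0.17, adjusted p = 0.033), Ccl24 and the ficolin Fcna. Gas6 rose (0.72 ± 0.15, adjusted p = 0.0029). The chow knockouts enter the diet comparison in knockouts as well, so these values and those are not independent.

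In batch 2, on high-fat diet, C1qc and Cd68 fell. C1qc was at 8.26, 9.40, 9.94 and 10.3 CPM in the 4 Bmal1 knockouts and at 10.7 (lowest), 12.9 (median) and 18.9 CPM (highest) in the 8 controls, without overlap (−0.53 ± 0.15, edgeR adjusted p = 0.0088). Cd68 was at 1.55, 1.71, 2.06 and 3.29 CPM against 2.19, 3.96 and 6.24 CPM, with knockout 7 inside the control range (−0.88 ± 0.28, adjusted p = 0.030). This is 2 of 10, where 13.9% of 13089 genes were called (6.94% higher, 6.96% lower). All 10 changes were negative, with a median of −0.47 (all genes −0.01). Csf1r (10.2, 10.7, 13.1 and 13.9 against 12.4, 17.2 and 21.8 CPM, −0.53 ± 0.19, adjusted p = 0.056), Adgre1 (−0.79 ± 0.30, adjusted p = 0.078) and C1qb (−0.61 ± 0.25, adjusted p = 0.11) did not pass. Il34, a ligand of CSF1R, fell by 0.65 ± 0.21 (adjusted p = 0.027), and Spi1, the gene of PU.1, by 0.73 ± 0.25 (adjusted p = 0.044). They were the 2 of 21 monocyte and macrophage identity genes that fell, and 0 rose. That list holds Il34, whose transcripts need not come from macrophages, and Il34 is among its genes called in the Vhl and double knockouts too.

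The C1qc call was lost without knockout 9 (−0.47 ± 0.16, edgeR adjusted p = 0.051). The Cd68 call was lost without any 1 of controls 9, 14 and 15 and knockouts 6, 8 and 9 (adjusted p of 0.054 to 0.15). So 1 marker passed without control 9 or 14 or knockout 6 or 8, and 0 without knockout 9. When the Bmal1 lines of both batches were fitted jointly, 0 of 10 passed, where 22.4% of 12565 genes did. Cd68 was then at −0.54 ± 0.23 (adjusted p = 0.10), the 1 marker with an unadjusted p under 0.05, and it passed without batch 1 knockout 4 (−0.68 ± 0.23, adjusted p = 0.032). The difference between the batches, tested directly and added after the data had been seen, gave 0 of 10 markers and 0.00796% of all genes. Its adjusted p was 0.85 or over for every marker, with Adgre1 at −1.28 ± 0.48 and Csf1r at −0.61 ± 0.24. In all 3 tests Gas6 rose with loss of Bmal1 (1.35 ± 0.11 and 1.20 ± 0.07 on high-fat diet in batches 1 and 2). Its levels were 94.9 ± 13.7 CPM (n = 5) against 37.2 ± 3.82 CPM (n = 7) in batch 1 and 101 ± 8.10 (n = 4) against 43.9 ± 1.59 CPM (n = 8) in batch 2. Gas6 transcripts need not come from macrophages, and their source was not tested. Ighm, the B cell gene of the immunoglobulin M heavy chain, rose in the same libraries (2.55 ± 0.21 and 1.94 ± 0.22 on high-fat diet), and its part in the marker values was not tested.

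Loss of Vhl was tested in obese muscle of batch 2. C1qa, C1qb, C1qc, Adgre1 and Cd74 rose, by 1.54-fold to 1.96-fold, and all 10 log2 changes were positive. C1qc was at 14.9, 19.8, 21.6 and 24.7 CPM in the 4 Vhl knockouts and at 8.70 (lowest), 12.4 (median) and 17.5 CPM (highest) in the 6 controls (0.68 ± 0.15, edgeR adjusted p = 0.00021). C1qa was at 15.9, 26.4, 33.1 and 36.9 CPM against 14.2, 16.7 and 26.1 CPM (0.66 ± 0.20, adjusted p = 0.0095). C1qb was at 9.15, 18.5, 18.6 and 26.9 CPM against 8.84, 10.5 and 19.3 CPM (0.62 ± 0.25, adjusted p = 0.048). For all 3 chains knockout 1 was the lowest knockout and control 6 the highest control, and these are the libraries in which the groups overlapped.

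Adgre1 was at 3.08, 4.31, 4.35 and 6.28 CPM in knockouts and 0.950, 2.59 and 4.50 CPM in controls (0.74 ± 0.29, edgeR adjusted p = 0.040). Cd74 was at 28.9, 34.6, 53.2 and 110 CPM against 19.6, 29.1 and 42.0 CPM (0.97 ± 0.33, adjusted p = 0.023). Only knockouts 2 and 3 lay above all controls for Cd74. Cd163 (0.57 ± 0.24, adjusted p = 0.059), Mrc1 (0.38 ± 0.18, adjusted p = 0.094), Csf1r (0.36 ± 0.19, adjusted p = 0.14) and Lgals3 (0.45 ± 0.38, adjusted p = 0.37) did not pass. Cd68 stood at 0.06 ± 0.28. The 5 calls of 10 compare with 37.3% of all genes called in this comparison (17.7% higher), and the median of 0.59 with 0.01.

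Monocyte and macrophage identity genes had 12 of 21 higher and 0 lower in the Vhl knockout, where 17.7% of all genes were higher and 19.5% lower. Il34, the CSF1R ligand, was at 5.60 ± 1.07 CPM in knockouts (n = 4) and 2.36 ± 0.758 CPM in controls (n = 6, log2 1.22 ± 0.20, edgeR adjusted p = 4.3e-06), and Cd14, a coreceptor for endotoxin, at 3.83 ± 0.808 and 1.62 ± 0.677 CPM (1.20 ± 0.24, adjusted p = 5.8e-05). Ccr2, the chemokine receptor of inflammatory monocytes, rose by 1.14 ± 0.32 (adjusted p = 0.0043), and Lst1, a transmembrane protein of leukocytes, by 1.62 ± 0.42. Of 15 phagocyte and Fc receptor genes 10 rose and 0 fell, among them the kinase genes Lyn (1.14 ± 0.17) and Syk (1.07 ± 0.30) and the receptor genes Mertk (0.65 ± 0.21) and Fcgr2b (0.88 ± 0.31). MHC class II genes had 4 of 5 higher: H2-Eb1 (1.43 ± 0.33), H2-Ab1 (1.15 ± 0.35), H2-Aa (1.01 ± 0.34) and H2-DMa (1.01 ± 0.30).

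Tissue-resident macrophage genes split, with 6 of 17 higher, such as the scavenger receptor gene Stab1 (0.94 ± 0.18, edgeR adjusted p = 3.7e-05) and the growth factor gene Igf1 (0.68 ± 0.14, adjusted p = 0.00019), and 1 lower, Lyve1 (−0.62 ± 0.25, adjusted p = 0.048). Lysosome and lipid-associated genes gave 8 higher and 3 lower of 23: Cd63 (0.52 ± 0.07) and Grn (0.44 ± 0.12) rose, while Lpl, lipoprotein lipase (−0.84 ± 0.15), and the protease gene Ctsb (−0.41 ± 0.09) fell. Of 13 cytokines and chemokines 6 rose, with Tgfb1 at 1.63 ± 0.33 and Ccl6 at 1.07 ± 0.25. Of 14 complement genes other than C1q, 0 passed in either direction (2 at an unadjusted p under 0.05), with Cd55 at −0.18 ± 0.11. Of all genes 37.3% were called here, against 41.2% of the tissue-resident and 47.8% of the lysosome and lipid-associated genes.

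Markers of other cells moved in the same libraries. All 10 endothelial markers were higher in the Vhl knockouts (summed 434 to 533 CPM against 217 to 241 CPM), with Pecam1 at 1.20 ± 0.09 (edgeR adjusted p = 5.7e-15), and 9 of 12 muscle fibre markers were lower (98000 to 116000 against 134000 to 162000 CPM). T cell markers summed to 3.88 to 15.8 CPM in knockouts and 3.31 to 6.55 CPM in controls, and 0 of the 3 tested passed. Neutrophil markers summed to 6.07 to 9.63 CPM in knockouts and 3.65 to 62.3 CPM in controls. MHC class II genes summed to 126 to 334 CPM against 54.1 to 126 CPM, with the 334 CPM in knockout 2. The part of these cells in the marker changes was not tested.

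The Vhl calls turned on single animals. Without Vhl knockout 2 only 1 marker passed, C1qc, and Cd74 was at 0.42 ± 0.32 (edgeR adjusted p = 0.33), C1qb at 0.37 ± 0.26 and C1qa at 0.49 ± 0.21 (adjusted p = 0.069). Without control 6 there were 9 calls and without knockout 1 there were 8, which then took in Csf1r (0.54 ± 0.16 and 0.51 ± 0.19), Cd163 (0.74 ± 0.23 and 0.72 ± 0.24) and Mrc1 (0.46 ± 0.18 and 0.54 ± 0.18). Leaving out control 2 or 3 or knockout 3 or 4 gave 3 calls each, and control 5 gave 2. The fit on the 10 libraries of the Vhl line alone called 1 marker. C1qc passed in all 10 fits that left out 1 library, at an adjusted p of 0.0038 at most over all alternatives.

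Loss of both Bmal1 and Vhl raised Lgals3 and Cd163. Lgals3 was at 14.3, 20.1, 27.9 and 31.6 CPM in the 4 double knockouts and at 5.11 (lowest), 10.2 (median) and 14.5 CPM (highest) in their 6 controls, with knockout 2 just inside the control range (1.20 ± 0.36, edgeR adjusted p = 0.0093). Cd163, the receptor that takes up haemoglobin bound to haptoglobin, was at 8.74, 9.54, 9.64 and 9.86 CPM against 4.60, 5.17 and 7.52 CPM, without overlap (0.73 ± 0.24, adjusted p = 0.017). Both calls held in every alternative and every fit without 1 library, at the threshold of 0.05. The 2 of 10 compare with 35.4% of all genes called (17.4% higher).

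C1qa was at 20.2, 22.4, 24.4 and 28.0 CPM in double knockouts and 13.1, 18.6 and 20.0 CPM in controls, again without overlap, but its change of 0.41 ± 0.20 did not pass (edgeR adjusted p = 0.11). C1qb (0.19 ± 0.25) and C1qc (0.07 ± 0.15), the partner chains, stood nearer to 0, as did Csf1r (0.24 ± 0.19), Adgre1 (0.05 ± 0.30), Cd74 (0.13 ± 0.34) and Mrc1 (−0.04 ± 0.17). Cd68 was at 1.75, 1.88, 2.30 and 2.31 CPM against 1.33, 3.10 and 3.96 CPM (−0.50 ± 0.30, adjusted p = 0.21). The median over the markers was 0.16, against 0.01 over all genes.

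Of 21 monocyte and macrophage identity genes 3 rose in the double knockout: Il34 (4.08 ± 0.578 CPM, n = 4, against 2.35 ± 0.574 CPM, n = 6, log2 0.81 ± 0.21, edgeR adjusted p = 0.0014), Cd14 (0.78 ± 0.22, adjusted p = 0.0049) and Irf8 (0.65 ± 0.23, adjusted p = 0.024). Lyn (0.72 ± 0.17), Mertk (0.51 ± 0.21) and Syk (0.77 ± 0.31) were the 3 of 15 phagocyte genes that rose. These shares of 14.3% and 20.0% stand near the 17.4% of all genes that rose, and 35.4% of all genes were called. MHC class II genes gave 0 of 5, with 0 at an unadjusted p under 0.05. Cd55, a complement regulator, rose (0.46 ± 0.10, edgeR adjusted p = 0.00045). All 10 endothelial markers were higher here as well (374 to 473 against 208 to 228 CPM) and 9 of 12 fibre markers lower. Neutrophil markers summed to 6.19 to 25.4 CPM against 3.55 to 7.70 CPM, and Ighm, an immunoglobulin chain gene of B cells, rose by 1.33 ± 0.25. Their part in the marker changes was not tested.

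**Figure D4:**
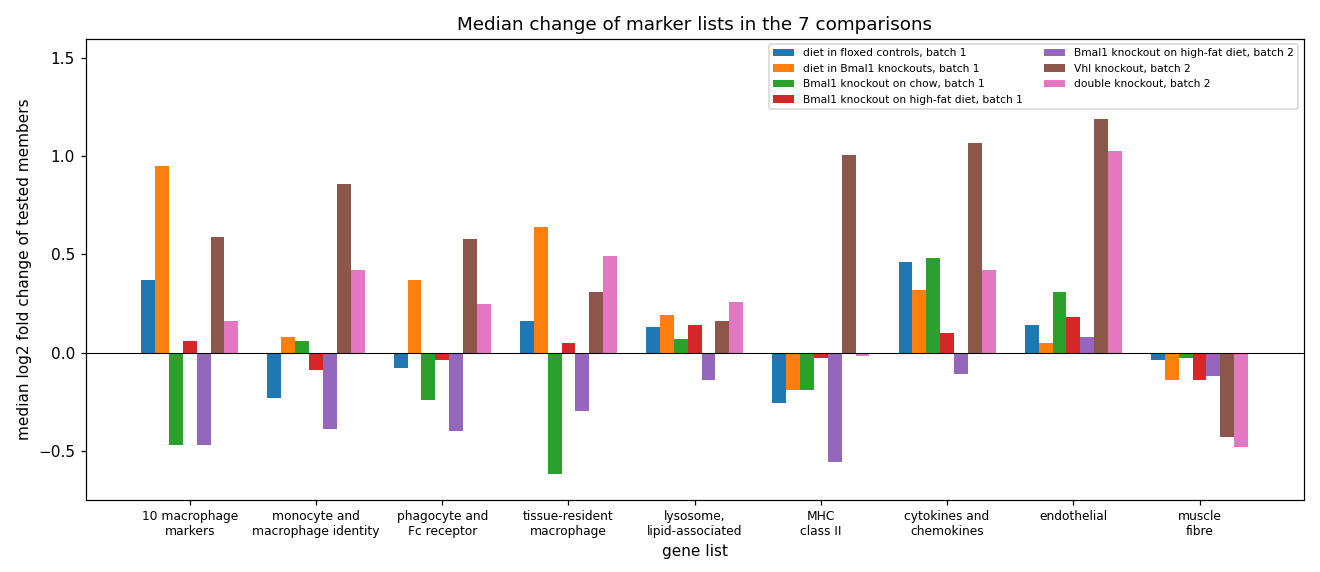
Median log2 fold change (y axis) of the tested genes of 9 lists (x axis) in the 7 comparisons of 2 groups (colours). The 10 markers have medians of 0.95 for diet in Bmal1 knockouts, 0.59 in the Vhl knockout and 0.16 in the double knockout.

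Differences between knockout effects, each effect taken against its own controls, were tested within batch 2. The Vhl effect exceeded the Bmal1 effect for 7 of 10 markers, where 25.3% of all genes differed (12.2% higher). These were C1qc (1.21 ± 0.21, edgeR adjusted p = 1.5e-05), C1qa (1.07 ± 0.28, adjusted p = 0.0050), Adgre1 (1.53 ± 0.42, adjusted p = 0.0053), C1qb (1.23 ± 0.35, adjusted p = 0.0099), Csf1r (0.88 ± 0.26, adjusted p = 0.013), Cd163 (0.97 ± 0.34, adjusted p = 0.033) and Cd74 (1.30 ± 0.47, adjusted p = 0.041). In the Bmal1 knockout all 7 had negative changes and in the Vhl knockout positive ones. C1qc, C1qa, C1qb, Adgre1 and Csf1r passed without each library in turn. Cd163 was lost without Bmal1 knockout 6 or 8, Vhl control 5 or Vhl knockout 3 or 4 (adjusted p of 0.056 to 0.084), and Cd74 in 12 of 22 such fits, with 0.75 ± 0.42 (adjusted p = 0.21) without Vhl knockout 2.

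The double knockout exceeded the Bmal1 knockout for 4 markers, where 16.7% of all genes differed (7.69% higher, 9.05% lower): Cd163 (1.13 ± 0.34, edgeR adjusted p = 0.019), C1qc (0.60 ± 0.21, adjusted p = 0.038), C1qa (0.82 ± 0.28, adjusted p = 0.040) and Csf1r (0.77 ± 0.27, adjusted p = 0.047). Lgals3 had the largest difference and did not pass (1.38 ± 0.50, adjusted p = 0.061). This contrast and the previous one share the 12 libraries of the Bmal1 line. Only 1 or 2 markers passed without any 1 of Bmal1 controls 9, 12 and 14, Bmal1 knockouts 6, 8 and 9, double controls 1, 4 and 6 and double knockouts 3 and 4. Cd163 passed in 21 of 22 fits that left out 1 library, and Csf1r in 6.

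Between the double and the Vhl knockout 0 of 10 markers differed, where 8.58% of all genes did (4.51% higher, 4.07% lower), with 1 marker at an unadjusted p under 0.05 and 1 called by DESeq2. That marker was C1qc (−0.61 ± 0.21, edgeR adjusted p = 0.058), which passed without Vhl control 6 (−0.74 ± 0.20), Vhl knockout 1 (−0.74 ± 0.21) or double control 1 (−0.65 ± 0.21). The other differences ran from −0.84 ± 0.48 for Cd74 to 0.75 ± 0.52 for Lgals3, with standard errors of 0.25 to 0.52.

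How the markers varied among animals of 1 group was described with group means removed. Across the 19 libraries of batch 1 the 45 pairs had a median Pearson r of 0.46 (−0.27 to 0.81), and across the 32 libraries of batch 2 a median of 0.54 (0.17 to 0.86), with 41 and 45 pairs positive. Libraries share depth and scaling, so these are descriptions. C1qc lies between C1qb and C1qa on chromosome 4. It was at r = 0.81 and 0.65 with C1qb, and at 0.23 and 0.73 with C1qa. C1qa, the third chain of the same protein, was at 0.00 with C1qb in batch 1 and 0.86 in batch 2. Cd163 stood apart from the rest in batch 1, with a median r of 0.06 against 0.50 in batch 2.

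**Figure D5:**
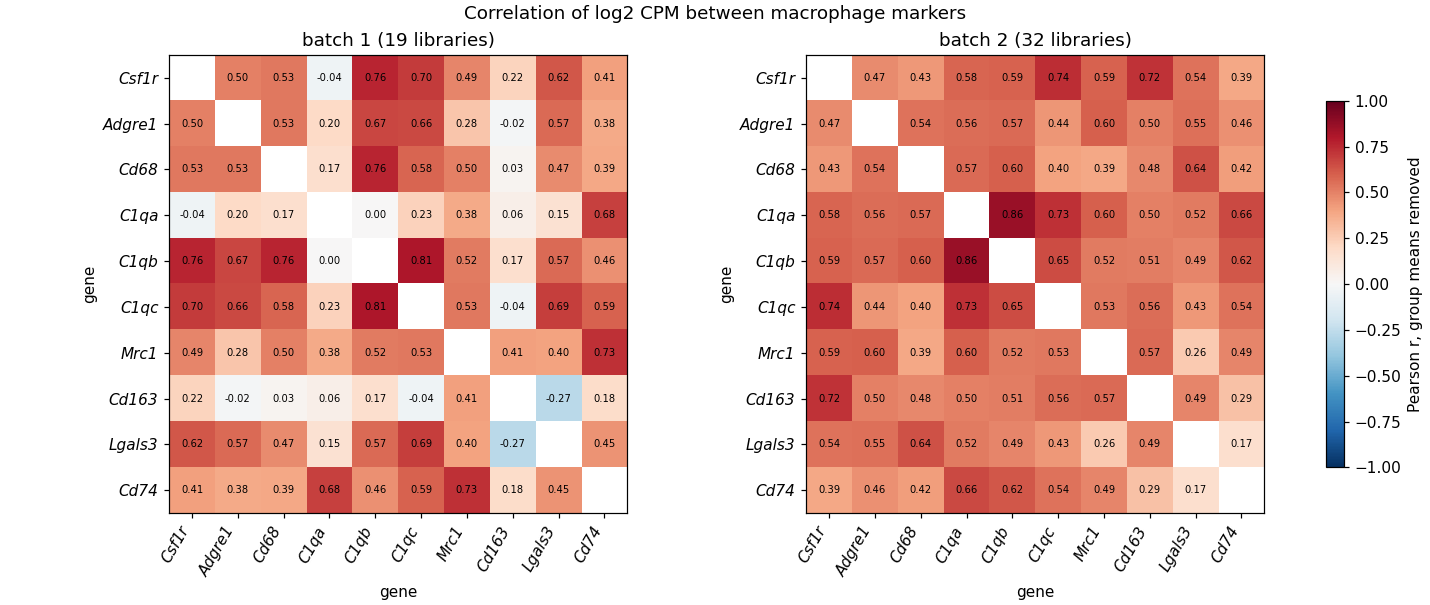
Pearson r of log2 CPM, with group means removed, between pairs of macrophage markers (both axes) in batch 1 (left, 19 libraries) and batch 2 (right, 32 libraries). All pairs are positive in batch 2, while Cd163 and C1qa have pale cells in batch 1, with median r of 0.06 and 0.17.

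The genes most like the mean of the 10 markers across animals, by the smaller of the 2 batch correlations over 11480 genes, were Lyz2 (r = 0.80 in batch 1 and 0.83 in batch 2), the gene of a lysozyme of myeloid cells, Ctss (0.80 and 0.85), a protease gene, C4b (0.78 and 0.81), Ccl6 (0.78 and 0.87) and Laptm5 (0.82 and 0.77). Apbb1ip, Grn, C3, Slc9a9 and Apoe followed, with smaller values of 0.71 to 0.75.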

How the data were processed

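RNA of whole gastrocnemius (300 ng per library) was made into QuantSeq 3′ FWD libraries, per the labels' protocols. The authors deposited counts per gene symbol, 1 table per batch. Per the submitters' processing notes, FastQC 0.11.4, STAR 2.6.0 and HTSeq, with builds mm10 and GRCm38.p4, were used. They also deposited normalized counts, a signal scaled per batch, with edgeR 3.26.8 named in the same notes.

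The deposited counts were fitted once per batch over all its groups (R 4.3.3, edgeR 4.0.16: filterByExpr, TMM, robust quasi-likelihood test). P-values were adjusted by Benjamini-Hochberg over all genes tested, with a threshold of 0.05. Levels are TMM-scaled CPM within a batch and are not compared across batches. Overlap of groups was looked at for the markers alone and not for all genes, so it is a description in every comparison. Correlations used log2 CPM with a prior count of 2. 4 date-like symbols with repeated rows were left out of batch 2. Animals are numbered here by their sample titles. For batch 2 Bmal1 knockouts 7, 8 and 9 the deposited column names carry other numbers. The replicate block and the correlations of same-numbered animals rest on the titles. Alternatives were DESeq2 1.42.0, limma 3.58.1 on the log2 of the authors' deposited normalized counts with a pseudocount of 1, other scalings and filters, a replicate block and each library left out. The model was tested on simulated data. Replicates correlated at 0.945 to 0.984.

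The 10 genes and the lists were chosen with earlier results of these data known. Genes named beside the 10 are, per list, up to 4 with the smallest p over the 7 comparisons of 2 groups, and the 10 genes most like the mean of the markers. Ccl2, Mmp12, Cd209d, Cd209f, Ccl24, Fcna, Spi1, Irf8, Lyve1 and other genes outside that rule were named after their values were seen, to spell out small counts. 0 columns of per-sample values were left unused.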

Additional observations from a re-analysis of the deposited data

Results flagged for a closer look

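In 8 of 90 sets of 1 marker in 1 group of 4 to 8 animals, a single library stood far above the rest, where chance flags about 1 in 20 groups, or 4.5 sets. That figure covers high and low libraries together and takes normal values and independent sets. All 8 flags were high and the markers share libraries, so it is a rough guide. 3 of the 8 came from Vhl control 6, the library with the most neutrophil transcripts: C1qa at 26.1 CPM (next highest 17.8 CPM), C1qb at 19.3 CPM (next 11.6 CPM) and Lgals3 at 22.8 CPM (next 10.5 CPM). Control 12 of the batch 2 Bmal1 line held C1qa at 30.4 CPM (next 22.5 CPM) and Cd74 at 73.2 CPM (next 37.4 CPM). Cd74 also stood out in batch 1 high-fat control 4 (40.0 CPM, next 25.5 CPM) and in double-line control 3 (59.2 CPM, next 29.7 CPM). Summed MHC class II transcripts were highest in the same 3 libraries within their groups, at 219, 147 and 168 CPM. Mrc1 was at 19.1 CPM in double-line control 2 (next 14.7 CPM).

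Knockout effects differed between lines in 11 tests of the difference itself. For the Vhl effect minus the Bmal1 effect, the log2 differences that passed were 1.53 for Adgre1, 1.07 for C1qa, 1.23 for C1qb, 1.21 for C1qc, 0.97 for Cd163, 1.30 for Cd74 and 0.88 for Csf1r. For the double effect minus the Bmal1 effect they were 0.82 for C1qa, 0.60 for C1qc, 1.13 for Cd163 and 0.77 for Csf1r. Both sets share the libraries of the Bmal1 line.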

How the results depend on the processing

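Counts are of the 10 markers called. With an adjusted p under 0.01, diet in knockouts gave 0, diet in controls 0, the batch 2 Bmal1 knockout 1, the double knockout 1, the Vhl knockout 2, the double minus Bmal1 difference 0 and the Vhl minus Bmal1 difference 4. DESeq2 gave 6 for diet in knockouts, 2 for diet in controls and 1 for the double minus Vhl difference. limma gave 5, 2 and 1 for these same comparisons. Without the low-count filter they were 7, 2 and 1, and the double minus Bmal1 difference gave 2. Fits on the groups of the contrast alone gave 5 for diet in knockouts, 2 for diet in controls, 4 for the batch 2 Bmal1 knockout and 1 for the Vhl knockout. Without both lymphocyte-rich libraries diet in knockouts gave 5. All genes called for diet in knockouts were 419 in the main fit. They were 576 with DESeq2, 435 with limma, 615 without the low-count filter, 460 on the contrast groups alone and 429 without the lymphocyte-rich libraries. With no scaling, diet in knockouts gave 1, the batch 2 Bmal1 knockout 0, the double knockout 5 and the Vhl knockout 8. That scaling moved the median of all genes from 0.01 to 0.35 in the Vhl and from 0.01 to 0.37 in the double knockout, and the split of all called genes from 2320 higher and 2556 lower to 5812 and 684 (Vhl) and from 2271 and 2366 to 6228 and 777 (double). The markers' median less that of all genes was then 0.58 and 0.14. For diet in controls the split went from 193 and 109 to 107 and 602. The cause was not tested.

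Animal numbers are shared between groups, and the replicate block gave 2 for diet in controls, 1 for the batch 2 Bmal1 knockout (Csf1r, with C1qc and Cd68 both lost), 2 for the double minus Bmal1 and 3 for the Vhl minus Bmal1 difference. Under the block all genes called fell from 1820 to 598 for the batch 2 Bmal1 knockout. By title, Bmal1 controls 10 to 15 and knockout 7 carry numbers that no other batch 2 library has, so the block absorbs them. Only 2 numbers are shared by the groups of this line. Calls lost under the block, also in the differences from the Bmal1 effect, therefore cannot be told from the loss of these libraries. Same-numbered animals correlated at −0.29 to 0.20 in their deviations, so the numbers were not taken as pairs. Leaving out 1 library at a time gave 0 to 5 for diet in knockouts, 0 to 2 for diet in controls, 0 to 1 for the Bmal1 knockout on chow, 0 to 3 for it in batch 2, 0 to 1 over both batches, 1 to 9 for the Vhl knockout, 1 to 5 for the double minus Bmal1 and 0 to 1 for the double minus Vhl difference. No called value changed sign under these alternatives. Of 880 values that did not pass, 26 changed sign and 52 passed under another setting. limma was not run over both batches, since the authors' values were normalized per batch. Groups of 3 to 8 animals and the low counts of Cd68 and Adgre1 limit precision.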
